A study of Mus musculus with 10 samples.

Results

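Enteroendocrine cells are the scattered hormone-producing cells of the gut lining. The 10 genes described here encode hormones of these cells, proteins of their secretory granules, an enzyme of serotonin synthesis and one of their transcription factors. They were chosen by name for these roles: Chga, Tph1 and Tac1 of the serotonin-producing enterochromaffin cells, the peptide hormone genes Gcg, Pyy, Nts, Cck and Sct, the granule protein gene Chgb and the regulator Neurod1. The files list 28987 gene IDs, and all 10 genes are among them. Of the 10, 9 reached 1 TPM (a share of all transcripts, corrected for transcript length) in at least 2 libraries and were tested, and Neurod1 did not. Pyy reached that level only in KO 1 and OE 3.

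The study sequenced RNA from crypts of the mouse ileum, the epithelial pits where new epithelial cells are born. The control group (Ctrl, 3 libraries) is labelled VilCreER;Stat5 with the genotype STAT5+/+, the knockout group (KO, 2 libraries) STAT5IEC-/-, and the overexpression group (OE, 5 libraries) VilCreER;icS5 with the genotype STAT5IEC+++. The labels of all groups thus point to a Cre driven by the villin promoter, which is active throughout the intestinal epithelium and is not limited to hormone cells. The allele written icS5 is not spelled out, no control of that line is analysed here, and whether or when Cre was induced is not given in the labels. Every library is labelled as from male C57Bl6 mice aged 12 weeks. The labels do not tie libraries to single animals, and the tests then reflect only how far these samples lie apart, which may be technical.

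Enteroendocrine cells arise from crypt progenitors under the transcription factor NEUROG3, which acts before NEUROD1, and they store their products in dense granules built with chromogranins. Each subtype releases its own mix of products to blood, nerves and neighbouring cells when nutrients or microbial products reach the gut lumen. They are a small minority of the epithelium, so in RNA from whole crypts their genes are read against a large background of other cells. In such bulk RNA, fewer hormone cells and less hormone RNA per cell cannot be told apart.

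NEUROD1 and NEUROG3 belong to a family of transcription factors that bind the E-box, CANNTG. The 250 bases before the transcription start of Chga, Gcg, Cck and Sct are shown because each of these 4 windows holds 3 E-box matches, in capitals, while the 4 genes differed in how they varied across the libraries. The sequences are from RefSeq, build GRCm38.p6, on the strand of the gene, and lie at chr12:102554691-102554940 (Chga, plus strand), chr2:62483654-62483903 (Gcg, minus strand), chr9:121495695-121495944 (Cck, minus strand) and chr7:141279134-141279383 (Sct, minus strand).
Chga: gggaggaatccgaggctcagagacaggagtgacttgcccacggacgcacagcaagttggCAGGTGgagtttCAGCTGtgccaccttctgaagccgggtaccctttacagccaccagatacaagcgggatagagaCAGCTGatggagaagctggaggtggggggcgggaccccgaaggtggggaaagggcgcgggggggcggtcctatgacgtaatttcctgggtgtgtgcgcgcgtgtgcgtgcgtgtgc
Gcg: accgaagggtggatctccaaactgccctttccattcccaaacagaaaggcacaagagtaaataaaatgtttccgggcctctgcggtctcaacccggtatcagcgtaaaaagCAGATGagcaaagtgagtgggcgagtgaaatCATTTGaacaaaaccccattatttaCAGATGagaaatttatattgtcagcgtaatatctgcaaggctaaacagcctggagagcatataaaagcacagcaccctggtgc
Cck: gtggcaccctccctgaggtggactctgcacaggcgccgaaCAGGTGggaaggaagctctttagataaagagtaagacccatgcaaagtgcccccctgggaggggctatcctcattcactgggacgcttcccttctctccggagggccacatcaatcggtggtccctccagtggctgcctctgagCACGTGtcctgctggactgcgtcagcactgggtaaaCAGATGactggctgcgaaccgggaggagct
Sct: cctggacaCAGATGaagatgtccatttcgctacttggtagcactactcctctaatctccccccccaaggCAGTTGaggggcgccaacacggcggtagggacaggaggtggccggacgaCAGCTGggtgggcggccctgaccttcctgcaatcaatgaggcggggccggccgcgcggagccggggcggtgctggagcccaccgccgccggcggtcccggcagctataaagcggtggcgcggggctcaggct
Searched on both strands, CANNTG was found in windows of 9 of the 10 genes, all but Tph1, and in 66.2% of 32851 RefSeq windows of the same length. At least 3 matches were found in 12.2% of all windows. The palindromic STAT motif TTCNNNGAA was found in 0 of the 12 windows of the 10 genes (2 of them have 2 windows) and in 7.02% of all windows. The exact full sequence of the cyclic AMP response element, TGACGTCA, was found for Chgb alone, and in 1.55% of all windows. Variants of it, such as TGACGTAA in the window of Chga, were not counted. These matches describe letters in the window and not binding.

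In mm10, with the GENCODE M21 annotation, the granule and enterochromaffin genes lie on chromosome 12 from 102554969 to 102565028 (Chga, ENSMUSG00000021194), chromosome 2 from 132781278 to 132795079 (Chgb), chromosome 7 from 46644641 to 46672537 (Tph1) and chromosome 6 from 7554879 to 7565834 (Tac1). The peptide hormone genes lie on chromosome 2 from 62474530 to 62483650 (Gcg), chromosome 11 from 102106676 to 102107832 (Pyy), chromosome 10 from 102481756 to 102490486 (Nts), chromosome 9 from 121489824 to 121495694 (Cck) and chromosome 7 from 141278330 to 141279133 (Sct). All are protein-coding genes. Neurod1 lies on chromosome 2 from 79452521 to 79456751, and its span overlaps that of Cerkl on the same strand, so its low values are uncertain.

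Some libraries stood apart as a whole. Ctrl 2 had 83.7% of its TPM in mitochondrially encoded transcripts, against 43.3% to 57.0% in the other libraries, and 8263 genes at 1 TPM or more, against 11050 to 11932. The deposited values were therefore divided by a median-ratio factor per library (0.295 for Ctrl 2, 0.831 to 1.31 elsewhere), and levels below are scaled TPM unless said otherwise. In Ctrl 2 the mean log2 level of 8 enterocyte genes was 10.2, against 4.64 to 8.05 elsewhere, and that of 7 Paneth cell genes was 4.70, against 7.73 to 9.87. Stat5a and Stat5b were lower in both KO libraries than in any other library, and OE 1, at 1.56 for Stat5a and 1.49 for Stat5b, lay within the Ctrl range for both. Summed Y-linked genes were low in Ctrl 3 (2.65), OE 3 (0.214) and OE 4 (0.118), against 39.2 to 125 in the other libraries, although all are labelled male.

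Hormone and granule genes were read at low to moderate levels in all 3 groups, and none changed with Stat5 genotype beyond the spread between libraries. The 10 genes together summed to 41.2 ± 11.5 scaled TPM over the 3 Ctrl libraries (mean ± SD, as for all means below), 42.6 ± 14.9 over the 2 KO libraries and 36.4 ± 16.1 over the 5 OE libraries. Of the 9 genes tested, 0 passed the limma test (Benjamini-Hochberg adjusted p at or under 0.05 over 13056 genes) in KO against Ctrl, OE against Ctrl or OE against KO. Over all genes, limma called 0% in each comparison, and 452, 797 and 385 genes had an unadjusted p under 0.05, with 0 of the 9 genes among them each time. The adjusted p of the 9 genes ran from 0.943 to 0.995 in KO against Ctrl and from 0.770 to 0.994 in OE against Ctrl, and was 1 throughout in OE against KO.

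**Figure D1:**
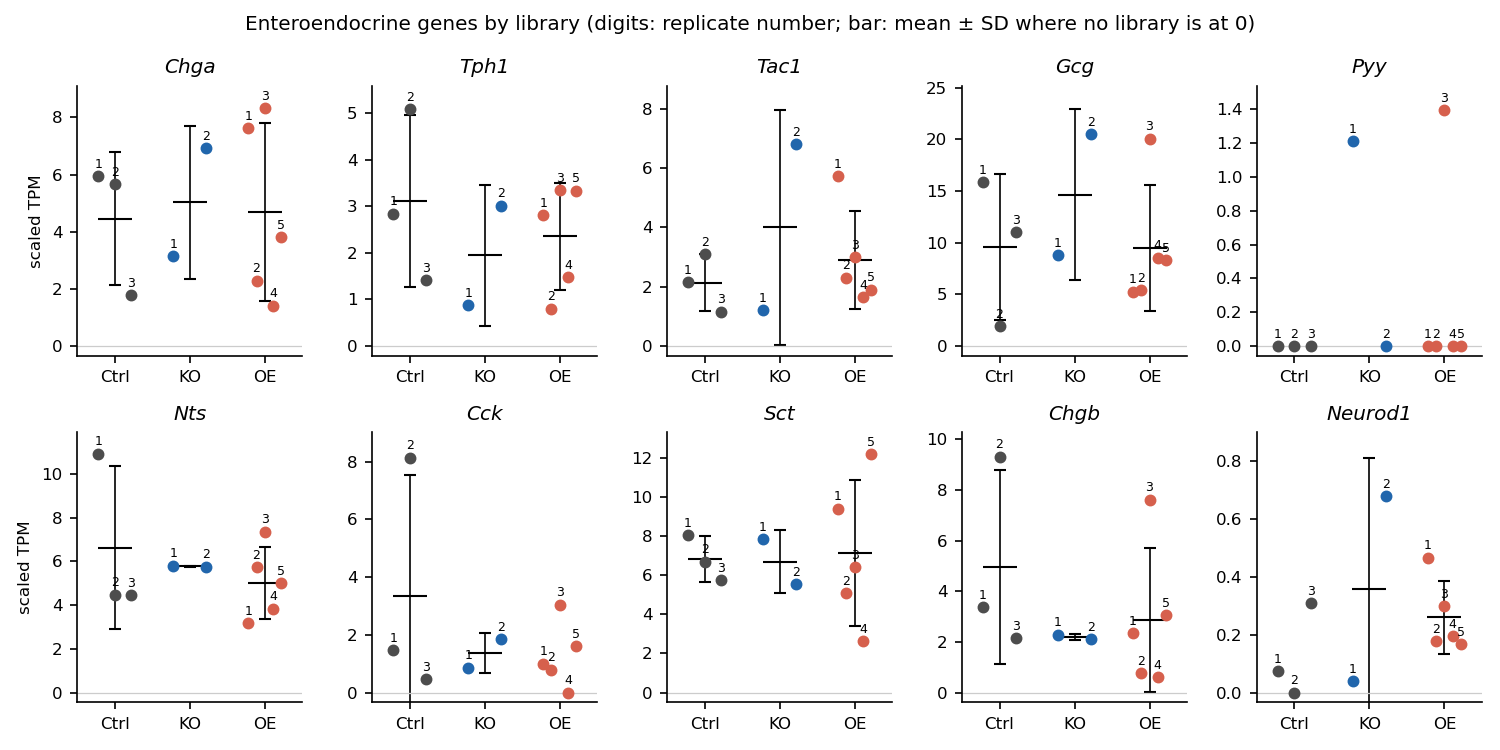
Level of each of the 10 genes (scaled TPM, linear axes that show 0) in each library, with points for the 3 Ctrl, 2 KO and 5 OE libraries and bars for the mean and SD of groups in which no library is listed at 0 (error bars that pass below 0 are cut off by the axis). The groups overlap in every panel, and the libraries of 1 group often span much of the range of a gene.

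The groups also overlapped for every gene. No gene of the 9 had all KO libraries above or below all Ctrl libraries, where 9.09% of all genes tested lay higher and 7.27% lower without overlap. The same count was 0 for OE against Ctrl (2.21% of all genes higher, 1.52% lower) and 0 for OE against KO (4.04% higher, 4.43% lower). The median log2 difference of the 9 genes was -0.03 in KO against Ctrl, -0.07 in OE against Ctrl and -0.17 in OE against KO, beside 0.04, 0.02 and -0.00062 for all genes. The intervals were wide: over the 9 genes the 95% intervals reached from -2.28 to 2.44 in KO against Ctrl and from -1.96 to 1.49 in OE against Ctrl on the log2 scale. A p that misses the threshold at this width does not show that the genes were unaffected.

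**Figure D2:**
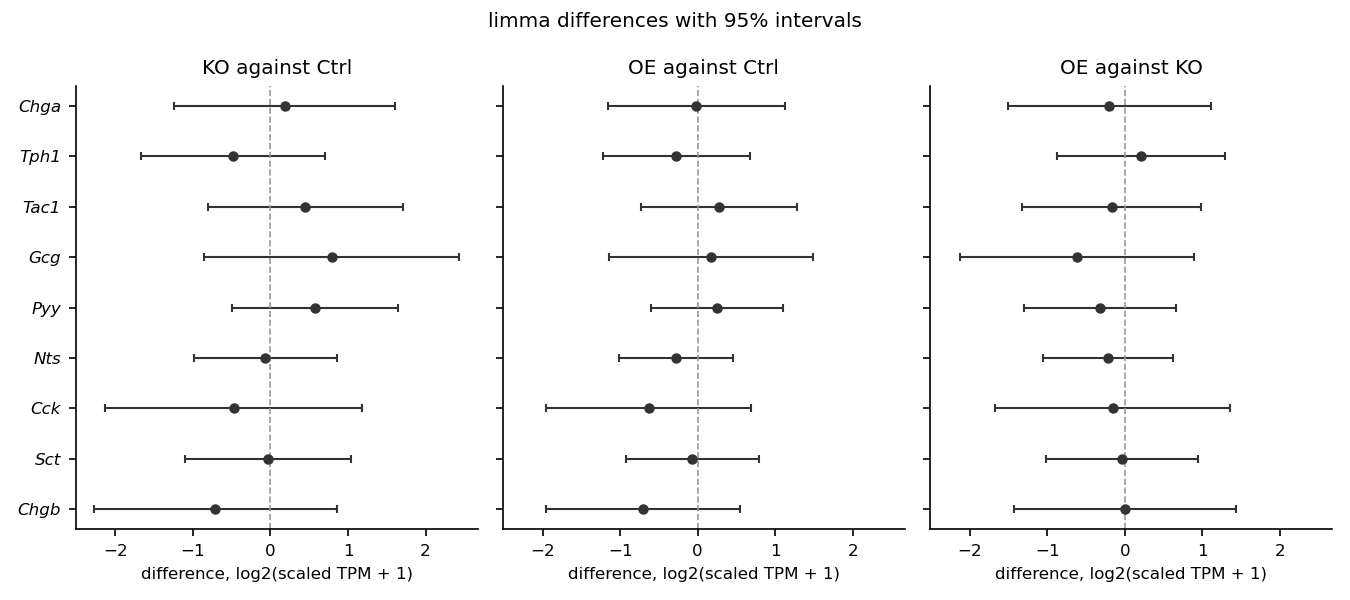
Log2 difference of the 9 tested genes (limma on log2(scaled TPM + 1), points) with 95% intervals (lines) in the 3 comparisons. Every interval holds 0, and those of Gcg, Cck and Chgb are among the widest.

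The enterochromaffin genes came first in the order of roles. Chga encodes chromogranin A, a structural protein of dense granules and the common marker of enterochromaffin cells. It was at 5.95, 5.66 and 1.77 scaled TPM in Ctrl, at 3.13 and 6.91 in KO, and at 7.63, 2.29, 8.32, 1.42 and 3.80 in OE. The OE libraries thus held both the highest and the lowest level, and the group means were close, with 4.46 ± 2.33 for Ctrl (n = 3), 5.02 ± 2.67 for KO (n = 2) and 4.69 ± 3.13 for OE (n = 5). The log2 difference was 0.18 in KO against Ctrl (95% interval -1.25 to 1.61, limma adjusted p = 0.977) and -0.02 in OE against Ctrl (-1.16 to 1.12, limma adjusted p = 0.994). The second of these differences turned to 0.36 with TPM as deposited.

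Tph1 encodes tryptophan hydroxylase 1, the rate-limiting enzyme of serotonin synthesis outside the nervous system. Its levels were 2.84, 5.09 and 1.41 in Ctrl, 0.879 and 3.01 in KO, and 2.81, 0.805, 3.34, 1.48 and 3.34 in OE. Ctrl 2 was the highest library and OE 2 the lowest, with KO 1 close to it. In KO against Ctrl the log2 difference of Tph1 was -0.48 (95% interval -1.66 to 0.70, limma adjusted p = 0.943). In OE against Ctrl it was -0.27 (-1.22 to 0.67, limma adjusted p = 0.878).

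Tac1 encodes the precursor of substance P and neurokinin A, made by part of the enterochromaffin cells and by enteric neurons. It was at 2.15, 3.11 and 1.16 in Ctrl, at 1.20 and 6.80 in KO, and at 5.72, 2.31, 2.99, 1.64 and 1.91 in OE. The 2 KO libraries differed from each other by more than any 2 Ctrl libraries, and the KO mean of 4.00 ± 3.96 rested on KO 2. Without KO 2 the log2 difference in KO against Ctrl went from 0.45 (95% interval -0.81 to 1.71, limma adjusted p = 0.943) to -0.46. Markers of enteric neurons were low but present. Ret, the receptor for glial cell line-derived neurotrophic factor, was above 0 in every library, at 0.163 to 0.465 in Ctrl, 0.210 to 0.223 in KO and 0.258 to 0.780 in OE. Chat, which makes acetylcholine, was at 0 to 0.975 in Ctrl, 0 to 0.377 in KO and 0.282 to 0.984 in OE, with no call. Prph, a filament protein of peripheral neurons, was listed at 0 in every library. The part of neurons in the level of Tac1 was not tested.

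Mast cells also make serotonin with Tph1 in rodents, and 4 of their 8 markers were tested. Cma1 and Tpsb2 were listed at 0 in every library. The summed level of the 8 was 0.565 to 5.56 in Ctrl, 2.76 to 9.04 in KO and 1.90 to 36.9 in OE, with none of the 4 called. Mcpt1 averaged 9.79 ± 9.10 over the OE libraries and 1.81 ± 1.25 over the Ctrl libraries. OE 4 and OE 5 had the highest Mcpt1 levels, 13.7 and 23.6, with Tph1 at 1.48 and 3.34. The part of these cells in the level of Tph1 was not tested.

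Among the peptide hormones, Gcg was the most abundant. It encodes proglucagon, which the L cells of the ileum cut into glucagon-like peptides 1 and 2. Its levels were 15.9, 1.91 and 11.0 in Ctrl, 8.79 and 20.5 in KO, and 5.27, 5.44, 20.1, 8.55 and 8.31 in OE. Ctrl 2 was the lowest of all libraries, while KO 2 and OE 3 were the highest. The means were 9.60 ± 7.09 in Ctrl, 14.6 ± 8.28 in KO and 9.53 ± 6.09 in OE. The log2 difference in KO against Ctrl was 0.79 (95% interval -0.85 to 2.44, limma adjusted p = 0.943), and without Ctrl 2 it was 0.03. In OE against Ctrl it was 0.17 (-1.14 to 1.49, limma adjusted p = 0.956), and without Ctrl 2 it was -0.59.

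Pyy encodes peptide YY, a hormone that L cells release after meals and that slows the gut. It was listed at 0 in 8 of the 10 libraries, at 1.21 in KO 1 and at 1.39 in OE 3. All 3 Ctrl libraries were at 0, so no fold is given, and as the values hold no read counts, a 0 may be a missed transcript. Gcg, made by the same cells, was well above 0 in KO 1 and OE 3 and also in most libraries where Pyy was at 0.

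Nts encodes neurotensin, a product of the N cells, which are most frequent in the ileum. It was at 10.9, 4.48 and 4.47 in Ctrl, at 5.80 and 5.77 in KO, and at 3.17, 5.73, 7.37, 3.84 and 4.99 in OE. Ctrl 1 was the highest library, and the others stayed within 3.17 to 7.37. The log2 difference was -0.06 in KO against Ctrl (95% interval -0.98 to 0.85, limma adjusted p = 0.990) and -0.28 in OE against Ctrl (-1.01 to 0.45, limma adjusted p = 0.837), and both turned with TPM as deposited, to 0.30 and 0.07. The interval of Nts in OE against Ctrl was the narrowest of the 9 genes.

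Cck encodes cholecystokinin, the I cell hormone that drives gallbladder contraction and pancreatic secretion and is most frequent in the upper small intestine. Its levels were 1.47, 8.13 and 0.460 in Ctrl, 0.866 and 1.85 in KO, and 0.998, 0.793, 3.04, 0 and 1.60 in OE. Ctrl 2 stood above every other library, and OE 4 was listed at 0. The log2 difference was -0.47 in KO against Ctrl (95% interval -2.13 to 1.18, limma adjusted p = 0.948) and -0.63 in OE against Ctrl (-1.96 to 0.69, limma adjusted p = 0.801). Without Ctrl 2 the 2 differences were 0.28 and 0.12.

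Sct encodes secretin, which stimulates bicarbonate secretion by the pancreas and is made by several enteroendocrine subtypes. It was at 8.07, 6.70 and 5.75 in Ctrl, at 7.85 and 5.55 in KO, and at 9.41, 5.07, 6.42, 2.64 and 12.2 in OE. The means were nearly level, 6.84 ± 1.17 in Ctrl, 6.70 ± 1.63 in KO and 7.15 ± 3.73 in OE, and OE 4 and OE 5 marked both ends of the range. The log2 difference was -0.03 in KO against Ctrl (95% interval -1.10 to 1.04, limma adjusted p = 0.995) and -0.07 in OE against Ctrl (-0.92 to 0.79, limma adjusted p = 0.977), and with TPM as deposited these were 0.38 and 0.32.

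Chgb encodes chromogranin B (secretogranin 1), which fills dense granules together with chromogranin A. It was at 3.36, 9.32 and 2.16 in Ctrl, at 2.28 and 2.10 in KO, and at 2.35, 0.766, 7.62, 0.607 and 3.05 in OE. The highest level was again in Ctrl 2, and OE 3 was the next. The means were 4.95 ± 3.83 in Ctrl, 2.19 ± 0.123 in KO and 2.88 ± 2.85 in OE. The log2 difference was -0.71 both in KO against Ctrl (95% interval -2.28 to 0.86, limma adjusted p = 0.943) and in OE against Ctrl (-1.96 to 0.54, limma adjusted p = 0.770), comparisons that share the Ctrl libraries. Without Ctrl 2 both were -0.22.

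Neurod1 encodes a transcription factor of maturing enteroendocrine cells. Its levels were 0.0741, 0 and 0.310 in Ctrl, 0.0396 and 0.678 in KO, and 0.465, 0.176, 0.299, 0.194 and 0.168 in OE, under 1 TPM everywhere. With no filter on low values the log2 difference was 0.24 in KO against Ctrl (limma adjusted p = 0.926 over 20461 genes) and 0.16 in OE against Ctrl (limma adjusted p = 0.836).

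In OE against KO, the comparison of the altered genotypes, the largest log2 differences were -0.62 for Gcg (95% interval -2.13 to 0.89) and -0.32 for Pyy (-1.30 to 0.66). On the other side stood Tph1 at 0.21 (-0.87 to 1.29). The limma adjusted p was 1 for every gene.

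Ordered by the median over 10 libraries, the levels ran from Gcg (8.67 scaled TPM) through Sct (6.56), Nts (5.36), Chga (4.73), Tph1 (2.83), Chgb (2.32), Tac1 (2.23) and Cck (1.23) to Neurod1 (0.185) and Pyy (0). Neighbours in this order overlapped. Gcg was above Sct in 7 of 10 libraries, Sct above Nts in 5, Nts above Chga in 6, Tph1 above Chgb in 5 and Chgb above Tac1 in 6. The steps from Chga to Tph1 and from Cck to Neurod1 were clearer, with the first gene higher in 9 of 10 libraries, and Tac1 was above Cck in 8.

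The mix of hormones within a library does not depend on the scaling between libraries. Gcg was the most abundant of the 10 genes in Ctrl 1, Ctrl 3, KO 1, KO 2, OE 3 and OE 4, Sct in OE 1 and OE 5, Nts in OE 2 and Chgb in Ctrl 2. In Ctrl 2 Gcg made up 4.31% of the summed TPM of the 10 genes, against 13.9% to 42.0% in the other 9 libraries. Chgb made up 21.0% there, against 2.98% to 12.5%, Cck 18.3%, against 0% to 5.00%, and Tph1 11.5%, against 2.74% to 8.48%. The ratio of Gcg to Chgb was 0.205 in Ctrl 2 and 2.24 to 14.1 elsewhere. As deposited, the 10 genes were at only 0 to 2.74 TPM in Ctrl 2, with Gcg at 0.563, so its shares and this ratio rest on low values. Ctrl 2 is also the library with the highest enterocyte and lowest Paneth cell markers and the largest mitochondrial share given above, and the part of these in its hormone mix was not tested.

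**Figure D3:**
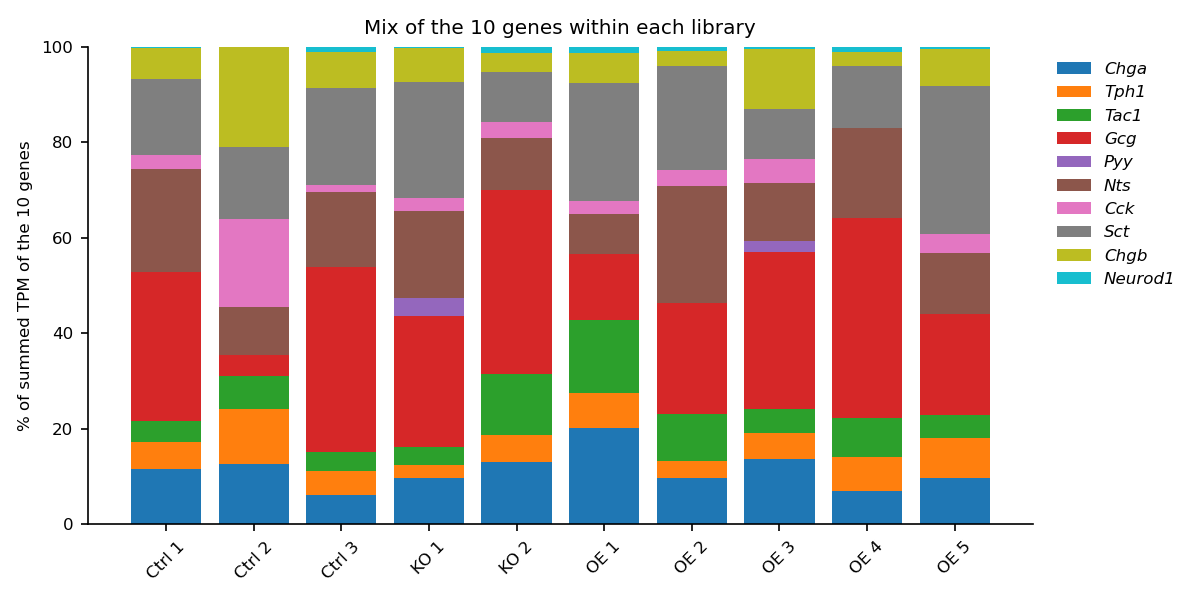
Share of each gene in the summed TPM of the 10 genes (percent, stacked bars from 0 to 100) in each library. Ctrl 2 differs from the other 9 libraries by its small Gcg share (4.31%) and its large Chgb (21.0%) and Cck (18.3%) shares, which rest on deposited values of 0 to 2.74 TPM.

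Some of the genes followed the enterocyte markers from library to library. The mean log2 level of 8 enterocyte genes (Fabp2, Anpep, Apoa1, Apoa4, Alpi, Sis, Lct and Slc5a1) was set against the log2 level of 8 of the genes over 10 libraries, a relation chosen after the values had been seen. Pyy and Neurod1 were left out for their low values. Two-sided permutation tests used 100000 resamples, and p-values were adjusted over the 8 relations. They do not account for the choice of the enterocyte list and are descriptive only. Cck had the highest Pearson r, 0.901 (permutation, adjusted p = 0.0134; Spearman rho 0.818, adjusted p = 0.0188). It was followed by Chgb with r = 0.807 (permutation, adjusted p = 0.0170; rho 0.830, adjusted p = 0.0188) and Tph1 with r = 0.792 (permutation, adjusted p = 0.0170; rho 0.721, adjusted p = 0.0435). Chga had r = 0.717 (permutation, adjusted p = 0.0241; rho 0.806, adjusted p = 0.0188).

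The other peptide genes did not pass by Pearson r. Sct had r = 0.489 (permutation, adjusted p = 0.215; rho 0.576, adjusted p = 0.119) and Nts r = 0.0776 (permutation, adjusted p = 0.790; rho 0.115, adjusted p = 0.761). Gcg had a negative r of -0.457 (permutation, adjusted p = 0.225; rho -0.285, adjusted p = 0.489), which was 0.134 without Ctrl 2. Tac1 passed by rank alone, with rho = 0.709 (permutation, adjusted p = 0.0435) and r = 0.470 (adjusted p = 0.225).

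These relations rested in part on the scaling and on Ctrl 2. Without Ctrl 2 and OE 4, the 2 libraries farthest from the median enterocyte level, r was 0.827 for Chga, 0.740 for Tph1, 0.594 for Cck, 0.490 for Chgb, 0.571 for Tac1, 0.451 for Sct, 0.126 for Nts and 0.0556 for Gcg. Without Ctrl 2 alone, Chga kept r = 0.878 (permutation, adjusted p = 0.0266), and Cck (r = 0.770), Tph1 (0.691) and Chgb (0.666) no longer passed, with adjusted p of 0.0591, 0.0780 and 0.0780. Sct, which had not passed before, then had r = 0.709 (permutation, adjusted p = 0.0780), above Tph1 and Chgb. With TPM as deposited none of the 8 passed, the highest being Cck with r = 0.789 (permutation, adjusted p = 0.0642). Chga then had r = 0.436 (adjusted p = 0.485). Both axes of each relation share the library and its scaling factor, and no group has the 6 libraries that a relation within a group would need.

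**Figure D4:**
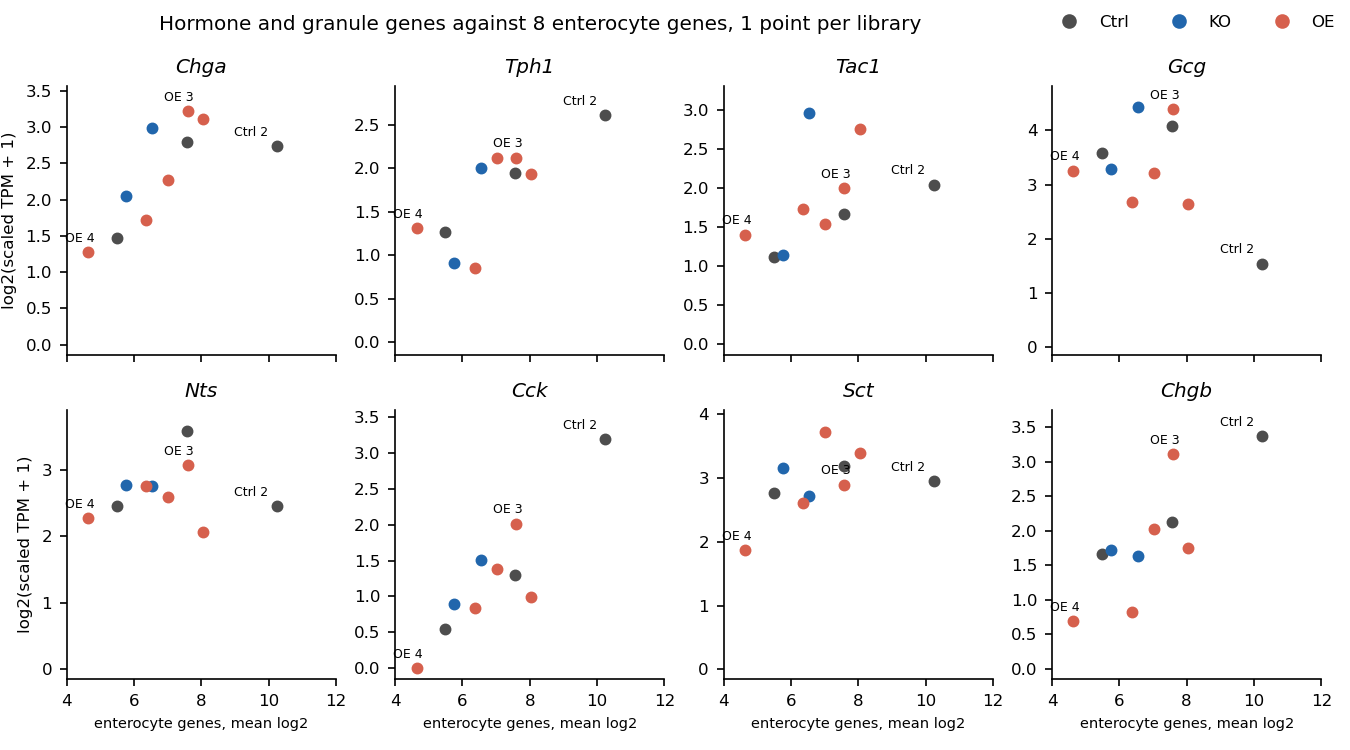
Level of each of 8 genes (log2(scaled TPM + 1), vertical axes) against the mean log2 level of 8 enterocyte genes (horizontal axes), with a point for each of the 10 libraries by group. Cck, Chgb, Tph1 and Chga rise along the enterocyte axis, with Ctrl 2 at its right end, and Gcg, Nts, Sct and Tac1 did not pass the test of Pearson r.

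The genes whose pattern was most like the mean log2 level of the 9 tested genes over the 10 libraries, among 7722 genes with a mean of at least 5 scaled TPM, were Zg16 (Pearson r = 0.901, Spearman rho = 0.867), Mir22hg (0.885 and 0.891), Pros1 (0.884 and 0.855), Glud1 (0.872 and 0.818) and Car13 (0.863 and 0.903). They were picked for this likeness, so no p is given, and each shares the library and its scaling with the 9 genes. Zg16, which encodes a secreted lectin of granule-bearing cells of the gut, was at 801 scaled TPM in both OE 1 and OE 3 and at 107 and 133 in OE 2 and OE 4. Chga was at 7.63 and 8.32 in the first pair and at 2.29 and 1.42 in the second. In OE 5 Zg16 was at 268 and Chga at 3.80. Chga is part of the mean by which Zg16 was picked, so their likeness is partly built in.

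Transcription factors that direct enteroendocrine fate were mostly under the filter. Of 16 listed, 6 were tested and 0 were called in any comparison, and the median log2 difference of the 6 was 0.18 in KO against Ctrl and 0.07 in OE against Ctrl. Foxa1, a pioneer factor, averaged 6.31 ± 5.00 for Ctrl, 6.81 ± 0.294 for KO and 8.19 ± 1.26 for OE. Sox4, which acts in endocrine progenitors, was at 6.93 ± 4.84, 11.7 ± 1.88 and 9.43 ± 2.13 in the same order. Both Ctrl means were pulled down by Ctrl 2, the lowest of all libraries for each gene. Foxa1 was at 6.44, 1.25 and 11.2 in Ctrl, and Sox4 at 10.4, 1.40 and 9.05. Neurog3, the factor that starts the lineage, was not tested and was at 1.44, 0 and 0.389 in Ctrl, 0 and 0.104 in KO, and 0.0186, 0.318, 0.784, 0.265 and 0.196 in OE.

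Of 12 other gut hormone genes, 3 were tested, 0 were called and 5 were listed at 0 in every library. Gip, the incretin of K cells, was at 9.09, 29.4 and 2.80 in Ctrl, 7.66 and 4.20 in KO, and 14.6, 4.92, 17.7, 1.97 and 3.20 in OE. Sst, which encodes somatostatin, the inhibitory peptide of D cells, was at 3.19, 16.2 and 1.49 in Ctrl, 4.81 and 3.06 in KO, and 6.64, 1.72, 4.77, 1.23 and 2.83 in OE. Both were highest in Ctrl 2 and lowest in OE 4, as Chgb and Cck were. With TPM as deposited, Sst was highest in KO 1, and Gip, Chgb and Cck in OE 3, while OE 4 stayed the lowest for each. The third gene tested was Adm, at 0.278 to 1.99 over all libraries. The median log2 difference of the 3 tested genes was -0.50 in KO against Ctrl and -0.49 in OE against Ctrl. In KO against Ctrl, Gip was at -0.65, Adm at -0.50 and Sst at -0.21. In OE against Ctrl, the same genes were at -0.52, -0.09 and -0.49.

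Of 29 genes for peptide processing and granule proteins, 13 were tested and 0 were called, with median log2 differences of -0.15 and 0.04 in KO and in OE against Ctrl. Ddc, which makes serotonin from the product of TPH1, was at 8.65, 53.5 and 5.33 in Ctrl, 1.76 and 4.23 in KO, and 10.7, 2.31, 11.1, 5.10 and 2.53 in OE. Both KO libraries were below all Ctrl libraries, as for 7.27% of all genes tested, with a log2 difference of -1.97 (95% interval -3.93 to -0.01, limma adjusted p = 0.943). Enterocytes, whose markers were highest in Ctrl 2, also express Ddc. Their part in this difference was not tested. Reg4, a secreted lectin of enteroendocrine and goblet cells, spanned 13.0 to 153 in Ctrl, 3.77 to 17.5 in KO and 14.0 to 227 in OE. Its log2 difference in OE against KO was 2.48 (0.03 to 4.93, limma adjusted p = 1). Pam, the enzyme that amidates peptides such as cholecystokinin, averaged 12.9 ± 2.26 for Ctrl, 13.3 ± 1.51 for KO and 12.0 ± 6.83 for OE. Rab3d, a small GTPase of secretory vesicles, was at 9.50 ± 6.68, 12.8 ± 1.89 and 13.1 ± 1.67. In Ctrl it was at 11.2, 2.13 and 15.1, and Ctrl 2 was the lowest of all libraries.

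Of 11 nutrient sensors of these cells, 5 were tested and 0 called. The most abundant was Lpar5, a receptor for lysophosphatidic acid and protein digests, with 17.8 ± 7.91 for Ctrl, 11.3 ± 3.41 for KO and 10.9 ± 3.98 for OE. In Ctrl it was at 11.4, 26.6 and 15.4, and Ctrl 2 was the highest of all libraries. Of the receptors for short-chain fatty acids, Ffar3 was at 1.31, 0 and 10.7 in Ctrl, 2.66 and 0.687 in KO, and 1.70, 2.99, 0.484, 6.26 and 7.29 in OE. Ffar2 averaged 3.00 ± 1.56, 1.72 ± 0.627 and 3.31 ± 2.16 for Ctrl, KO and OE. Of 19 genes for receptors of the 10 genes' products and for the serotonin transporter, 2 were tested and 0 called, and 9 were listed at 0 in every library. Slc6a4, the transporter that clears serotonin into the epithelium, was at 22.8, 36.6 and 20.2 in Ctrl, at 17.2 in both KO libraries, and at 17.6, 16.2, 24.9, 11.9 and 24.1 in OE. Its KO libraries lay below all Ctrl libraries, as for 7.27% of all genes tested, with a log2 difference of -0.55 (95% interval -1.34 to 0.24, limma adjusted p = 0.943). With TPM as deposited the groups overlapped, at 27.8, 10.8 and 26.4 in Ctrl and 20.8 and 18.1 in KO.

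Of the markers of enterocytes and Paneth cells 0 were called, while their medians lay well away from 0. The 8 enterocyte genes had a median log2 difference of -1.32 in KO against Ctrl, -0.73 in OE against Ctrl and 0.55 in OE against KO, and the 7 Paneth cell genes one of 0.81, 1.69 and 0.90. The differences against Ctrl leaned on Ctrl 2. The mean log2 level of the enterocyte genes was 7.57, 10.2 and 5.49 in Ctrl 1, Ctrl 2 and Ctrl 3. It was 5.76 and 6.55 in KO and 4.64 to 8.05 in OE. That of the Paneth cell genes was 8.48, 4.70 and 8.66 in the same Ctrl libraries. It was 7.73 and 8.52 in KO and 8.12 to 9.87 in OE. The summed level of the 10 hormone and granule genes was lowest in OE 4 (20.4) and highest in OE 3 (60.9), and with TPM as deposited it was lowest in Ctrl 2 (13.1). Of the 9 genes other than Pyy, OE 4 held the lowest level of 4, Ctrl 2 the lowest of 2 and the highest of 3, and KO 2 the highest of 3. With TPM as deposited, Ctrl 2 held the lowest level of 6 and the highest of 0.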

How the data were processed

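RNA from ileal crypts was measured in 10 libraries (3 Ctrl, 2 KO, 5 OE), grouped by the labels. The authors deposited TPM for each gene ID, per the file headers of 9 libraries. That of Ctrl 1 names none, and TPM was inferred from its values and the other files. Per the submitters' processing notes, TopHat, Cufflinks and the build mm10 were used, with no version named. Which tool gave the TPM, and with which annotation, is not given in the sources used here. The unit keeps no depth, so the depth is unknown and no counting interval is given.

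TPM were divided by median-ratio factors over 11146 genes above 0 in every library. Genes at 1 TPM or more in at least 2 libraries (13056) were tested with limma 3.58.1 (R 4.3.3, intensity trend, all libraries, 3 group means) on log2(scaled TPM + 1), a pseudocount that understates fold changes of low genes. P-values were adjusted by Benjamini-Hochberg over every gene tested, with a threshold of 0.05. The script was tested on simulated data. Permutation tests used scipy 1.17.1. Symbols came from GENCODE M21 (GRCm38) for 27458 of 28987 IDs.

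All 10 genes are described in every library. From each list the text takes called genes or else those with the highest means, and for likeness the 5 genes with the highest Pearson r. Neurog3, the markers listed at 0 and the 8 enterocyte relations go beyond that rule and were chosen after their values were seen. The 10 genes and all lists were chosen with earlier results of these data known. Alternatives were other scalings, pseudocounts, filters, fits and libraries left out. The summed level of the neuron markers is not reported here.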

Additional observations from a re-analysis of the deposited data

Results flagged for a closer look

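In groups of 5 libraries, 34 values were checked for a library whose gap to its nearest neighbour exceeded 0.710 of the group's range. Chance gives about 5% such flags, a rate that does not hold for genes listed at 0 in all but 1 library. In OE, 3 were found. Gcg was at 20.1 scaled TPM in OE 3, against 5.27 to 8.55 in the other OE libraries. Pyy was at 1.39 in OE 3 and listed at 0 in the other 4 OE libraries. Htr1d, a serotonin receptor gene, was at 0.0346 in OE 5 and listed at 0 in the others, a level too low to read. For Pyy and Htr1d the flag was certain, as the other 4 libraries were tied at 0. OE 3 is also the library with the highest sum of the 10 genes in OE and is among the 3 libraries with low Y-linked genes.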

How the results depend on the processing

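Over 525 alternative values of the 27 gene differences, none passed the threshold (smallest limma adjusted p 0.453). Outside the libraries left out in turn, 229 did not turn in sign and 26 turned. With a library left out, 236 did not turn and 34 turned, and 8 of the 27 differences turned in none. Among these 8, that of Pyy in KO against Ctrl fell to 0 without KO 1, and that in OE against Ctrl without OE 3. The cause of the turns was not tested. TPM as deposited moved the median of all genes from 0.04 to 0.38 in KO against Ctrl and from 0.02 to 0.36 in OE against Ctrl. In that scaling the log2 difference in OE against Ctrl was 0.36 for Chga, 0.071 for Nts, 0.32 for Sct and 0.093 for Tph1, that in KO against Ctrl 0.30 for Nts and 0.38 for Sct, that of Chgb in OE against KO -0.036, and the r of Nts -0.195. Without mitochondrial transcripts Chga was 0.027 in OE against Ctrl, Nts 0.022 and Sct 0.054 in KO against Ctrl, and Chgb -0.10 in OE against KO. With library weights Chga was -0.00032 in KO against Ctrl, Gcg -0.60 in OE against Ctrl and Chgb -0.051 in OE against KO. A pseudocount of 5 gave 0.0073 for Chga in OE against Ctrl and 0.0050 for Sct in OE against KO, and one of 0.1 gave -0.16 for Chgb in OE against KO. Without Ctrl 3, OE 3 and OE 4, Chga was -0.25 in KO against Ctrl, Sct 0.17 in OE against Ctrl and 0.31 in OE against KO, and Chgb -0.15 in OE against KO. The replicate block gave, in OE against KO, 0.18 for Cck, 0.25 for Chga, 0.10 for Sct and 0.27 for Tac1, and 0.35 for Chga in OE against Ctrl. It called 3 genes of all in OE against Ctrl. Whether replicate numbers pair the samples could not be settled. Deviations of same-numbered libraries from their group means had r from -0.177 to 0.0634, but groups of 2 to 5 libraries are too small for such a check.

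The count of genes called, 0 in each comparison, became 5 in KO against Ctrl and 7 in OE against KO with no filter, 1 in KO and 1 in OE against Ctrl with only the groups compared, and 1 in OE against Ctrl and 1 in OE against KO without Ctrl 3, OE 3 and OE 4. Leaving out a library gave 0 to 2 in KO against Ctrl (2 without KO 1, 1 without OE 3), 0 to 1 in OE against Ctrl (1 without KO 1 or KO 2) and 0 to 2 in OE against KO (2 without KO 1, 1 without OE 1 or OE 3). The same range of the log2 difference in KO against Ctrl was -1.04 to 0.28 for Cck, -0.29 to 0.65 for Chga, -0.25 to 0.31 for Nts, -0.25 to 0.19 for Sct, -0.46 to 1.36 for Tac1 and -1.03 to 0.065 for Tph1. In OE against Ctrl it was -1.20 to 0.12 for Cck, -0.45 to 0.24 for Chga, -0.59 to 0.68 for Gcg, -0.47 to 0.094 for Nts, -0.28 to 0.19 for Sct and -0.61 to 0.059 for Tph1. In OE against KO it was -0.46 to 0.15 for Cck, -0.67 to 0.27 for Chga, -0.36 to 0.25 for Chgb, -0.89 to 0.25 for Pyy, -0.25 to 0.22 for Sct, -1.08 to 0.74 for Tac1 and -0.34 to 0.76 for Tph1. The r of Gcg with the enterocyte genes was 0.134 without Ctrl 2. With KO reduced to 1 library, its spread is assumed to be that of the other groups. With a filter of 5 TPM only Chga, Gcg, Nts and Sct were tested.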
